A study of Mus musculus with 12 samples.

Results

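Aquaporins are small membrane channels that let water cross the plasma membrane, and some of them also pass glycerol. The genes described here are 8 of them, Aqp1, Aqp3, Aqp4, Aqp5, Aqp7, Aqp8, Aqp9 and Aqp11, found by their exact names among the 43280 entries of one expression table and the 23930 entries of a second table. The family was chosen by the fold change of Aqp1, the highest of all genes tested between mouse embryonic fibroblasts (MEF cells) carrying mutant IDH2 and their controls, so its values in that comparison are a description and carry no test. The other 7 were added as members of the same family.

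Each channel is a tetramer in which every subunit forms its own pore, and water moves through it along the osmotic gradient. Aqp1, Aqp4, Aqp5 and Aqp8 are mainly water channels, whereas Aqp3, Aqp7 and Aqp9 are aquaglyceroporins that carry glycerol as well. Aqp11 is a distant member that sits largely on membranes inside the cell. Aqp1 is best known from red blood cells, the kidney proximal tubule and the endothelium of small vessels.

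All 12 libraries came from MEF cells of C57BL/6 embryos at embryonic day 13.5 that had become immortal spontaneously. Control cells received the empty retroviral vector, and 2MUT cells stably expressed a cancer-associated mutant of human IDH2, a mitochondrial enzyme whose mutant form makes 2-hydroxyglutarate (2-HG), after retroviral infection and puromycin selection. 2-HG(+) cells received a form of 2-HG that enters cells, at 300 μM for 24 h, and 2-HG(-) cells were their controls, labelled as given DMSO for 24 h although the study's text calls them non-treated. Each of the 4 groups had 3 libraries, and no source used here says whether those were separate cultures, so the p-values measure the spread between these libraries, which may be technical. Nothing states whether the 2MUT cells came from 1 infection or several, so mutant IDH2 and the history of that selected population cannot be told apart.

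Values were reads per 1000000 reads (RPM), with 1 amplified target read for each gene, and levels of different genes are therefore not compared with each other. The whole reads behind each RPM value were recovered, and the libraries held 6472439 to 7313602 reads in the Control and 2MUT table and 14959318 to 18363768 in the table of the 2-HG treatment. For the Control and 2MUT libraries 3 reads corresponded to 0.410 to 0.464 RPM, and for the treatment to 0.163 to 0.201 RPM. Replicates differed by more than counting error (chi-square over its degrees of freedom, 5.57 to 31.4 for pairs within a group), and no library appeared to be deposited more than once. Mouse Idh2 averaged 77.3 ± 5.54 RPM (SD, n = 3) in Control and 49.6 ± 6.39 RPM in 2MUT cells, which does not check the transgene because the position of the amplified target, and whether it can read the human cDNA, were not examined here.

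The reads split the family into a group that was plainly present and a group that was at or near zero. Aqp1, Aqp3, Aqp5 and Aqp11 were above 3 reads in 12 of 12 libraries, and the remaining 4 members were above 3 reads in 0 of 12. Aqp4, the main water channel of astrocytes, and Aqp9, a glycerol channel of liver, had 0 reads in every library. With 3 reads taken as what a count of 0 allows in a library, for counting error only, that limit is 0.464 RPM for the shallowest library of the first table and 0.201 RPM for that of the second. Aqp7, the glycerol channel of fat cells, had 2 reads in 1 library, 2MUT replicate 3, and none elsewhere. Aqp8, a channel for water and ammonia, had 1 read in each of 2 libraries, 2MUT replicate 1 and 2-HG(+) replicate 2. The member closest above the 3-read level was Aqp11, whose lowest library held 23 reads, and the closest below it was Aqp7. In a bulk library, fewer cells expressing a channel and less RNA of it per cell cannot be told apart.

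**Figure D1:**
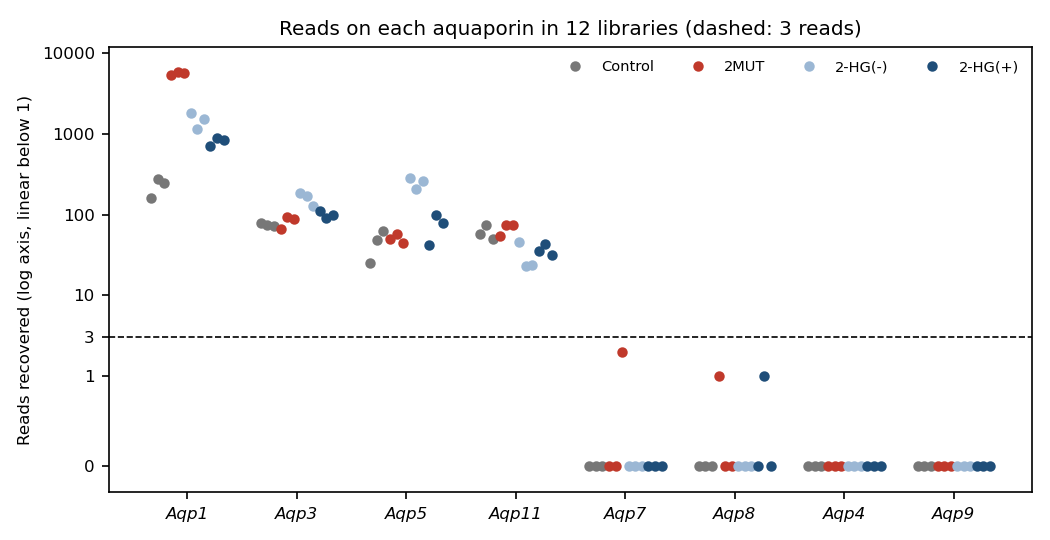
Reads recovered for each of the 8 aquaporins (horizontal axis) in the 12 libraries, coloured by group, on a log axis that is linear below 1; the dashed line marks 3 reads. Every point of Aqp1, Aqp3, Aqp5 and Aqp11 lies at 23 reads or more, and no point of Aqp7, Aqp8, Aqp4 and Aqp9 exceeds 2 reads.

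The rest of the mouse family was at or near 0 reads as well. Aqp12, a pancreatic member, reached 4 reads and was above 3 reads in 2 of 12 libraries. Aqp2, the vasopressin-controlled channel of the kidney collecting duct, reached 3 reads in 1 library, Aqp6 had 1 read in 1 library, and Mip, the channel of the eye lens, had 0 reads throughout. Of 12 aquaporin genes in all, 4 were thus above 3 reads in every library. A gene that is not expressed and a target that does not amplify cannot be told apart here, and genes outside the family that many cells express were also near 0 in the Control and 2MUT libraries, with 0 reads in all for Akr1b3 and 2 for Lrrc8a.

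The measured genes lie on separate chromosomes (GRCm38, GENCODE M21 annotation). Aqp1 spans chr6:55336432-55348555 on the plus strand with up to 4 exons in a transcript, Aqp3 spans chr4:41092722-41098183 on the minus strand with up to 6, Aqp5 spans chr15:99590782-99594829 on the plus strand with up to 5, and Aqp11 spans chr7:97724006-97738289 on the minus strand with up to 3. No other annotated gene overlaps any of these. Some members with and without reads are near neighbours. Aqp5, with reads in 12 of 12 libraries, is separated from Aqp2 by 6234 bp and from Aqp6 by 6570 bp with 0 genes between, and both of those were at most 3 reads. Aqp3 and Aqp7 are 44582 bp apart on the same strand of chromosome 4, with 1 gene between them.

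The windows of 250 bases before the start of Aqp1 and Aqp3 are printed because both genes were measured in every library and were called lower in the 2-HG treatment. They were read from RefSeq (GRCm38.p6), 5′ to 3′ on the strand of the gene, as chr6:55336049-55336298 (plus) and chr4:41098184-41098433 (minus). Capitals mark matches on either strand to any of the 4 motifs searched, which were GGGCGG (the GC box core), TATAAA (the TATA box), ACGTG (a core of hypoxia response elements) and GCGTG (the other form of that core). These motifs do not overlap each other in the printed windows.
Aqp1: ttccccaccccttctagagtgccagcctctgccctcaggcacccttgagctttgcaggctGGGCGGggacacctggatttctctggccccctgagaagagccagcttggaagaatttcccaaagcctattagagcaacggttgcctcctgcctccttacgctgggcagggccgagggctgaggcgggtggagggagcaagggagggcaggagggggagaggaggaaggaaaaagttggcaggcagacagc
Aqp3: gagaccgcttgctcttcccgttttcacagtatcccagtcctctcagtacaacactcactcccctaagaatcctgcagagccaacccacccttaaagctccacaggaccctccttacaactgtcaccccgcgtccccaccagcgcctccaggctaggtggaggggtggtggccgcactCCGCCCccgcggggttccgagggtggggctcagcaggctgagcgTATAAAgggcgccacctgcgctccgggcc
The Aqp1 window held 1 GGGCGG and none of the other 3 motifs. The Aqp3 window held 1 GGGCGG, which appears as its reverse complement, and 1 TATAAA. Of 32851 windows of this length, 32.7% held GGGCGG, 12.4% held TATAAA, 16.6% held ACGTG and 28.2% held GCGTG. CpG pairs numbered 5 in the Aqp1 window and 14 in Aqp3, and the median over all windows was 6. The RefSeq window of Aqp5 is not described, since 246 of its 250 bases lie in the GENCODE transcript. A match describes letters and not a site in use, and the absence of a match says only that these letters are not in the window.

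To see how stable expression of mutant IDH2 went with the channels, 2MUT was set against Control. Aqp1 stood far apart from the rest of the family. It was at 24.1, 39.2 and 33.5 RPM in the 3 Control libraries (163, 275 and 245 reads) and at 826, 870 and 793 RPM in the 3 2MUT libraries (5344, 5939 and 5765 reads). Every 2MUT library was far above every Control library. The means were 32.3 ± 7.60 and 830 ± 38.2 RPM (SD, n = 3), a 25.7-fold difference, and the log2 fold change of RPM + 1 was 4.67 (SE 0.15, 95% interval 4.34 to 5.00). It ranked 1 of the 11065 genes that averaged 1 RPM or more, which is the value that brought the family into view. The interval takes no account of that choice.

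The other measured channels were close to their control level. Aqp3, a channel for water and glycerol found in skin and in the collecting duct, was at 11.5, 10.7 and 9.85 RPM in Control and 10.4, 13.8 and 12.2 RPM in 2MUT cells. The groups overlapped, and the log2 fold change was 0.16 (SE 0.17, 95% interval -0.22 to 0.54). Aqp11 was at 8.58, 10.7 and 6.84 RPM in Control and 8.34, 11.0 and 10.2 RPM in 2MUT cells. The libraries again overlapped, with a log2 fold change of 0.17 (SE 0.20, 95% interval -0.27 to 0.62).

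Aqp5, a water channel of secretory glands and lung, was at 3.70, 6.98 and 8.61 RPM in Control and 7.72, 8.49 and 6.05 RPM in 2MUT cells. The lowest Control value rests on 25 reads, for which the exact 95% Poisson interval, covering counting error only, is 16.2 to 36.9 reads. The log2 fold change was 0.23 (SE 0.27, 95% interval -0.35 to 0.82), and without that library it was -0.07. The intervals of Aqp3, Aqp5 and Aqp11 thus leave room for differences of 0.54 to 0.82 on the log2 scale in the higher direction. Among the 4 members that passed the filter, 1 was called higher at an adjusted threshold of 0.05, beside 16.5% of all 11065 genes called higher and 33.8% called in either direction. Its 2MUT libraries were all above Control, as in 23.5% of genes. As the comparison chose the family, nothing is read from these counts.

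**Figure D2:**
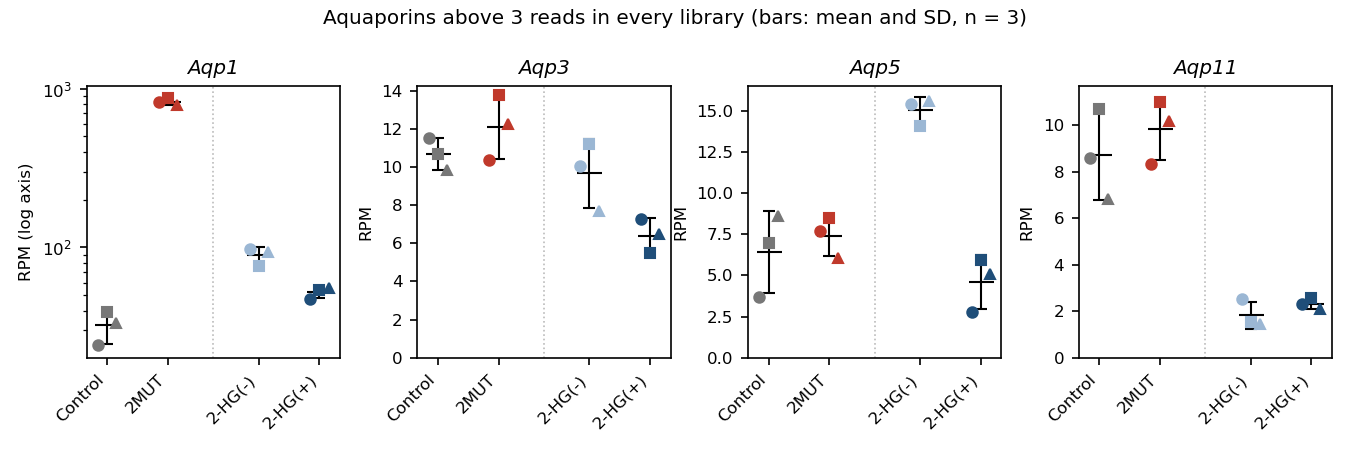
RPM of Aqp1 (log axis), Aqp3, Aqp5 and Aqp11 (linear axes from 0) in each library of the 4 groups, with black bars for the mean and SD (n = 3); the dotted line separates tables that were normalised on their own. Aqp1 is at 793 to 870 RPM in 2MUT cells, and Aqp1, Aqp3 and Aqp5 lie lower in 2-HG(+) than in 2-HG(-) cells.

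To ask what 24 h of 2-HG did to the same channels, 2-HG(+) was compared with 2-HG(-). Of the 4 members measured, Aqp1, Aqp3 and Aqp5 fell and Aqp11 did not pass the test. Lower calls made up 16.7% of all 10384 genes tested, and calls in either direction 32.8%, against 3 of the 4 members. In each of these 3 genes all 2-HG(+) libraries lay below all 2-HG(-) libraries, as they did for 24.1% of all genes tested, while 22.2% had all 2-HG(+) libraries above. All 4 members were above 1 RPM in each library of this table, so none passed the filter through 1 group only.

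Aqp5 had the largest fold change of the 4. Its level was 15.4, 14.1 and 15.6 RPM in 2-HG(-) cells (283, 211 and 260 reads) and 2.78, 5.95 and 5.10 RPM in 2-HG(+) cells (42, 99 and 78 reads). The highest treated library stood well below the lowest control. The mean went from 15.0 ± 0.818 to 4.61 ± 1.64 RPM (SD, n = 3), 3.26-fold lower. The log2 fold change was -1.56 (SE 0.21, 95% interval -2.04 to -1.08, limma adjusted p = 0.00054). It ranked 136 from the lowest of the 10384 fold changes.

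Aqp1 fell as well, by a smaller factor than Aqp5. The 2-HG(-) libraries were at 98.2, 76.6 and 93.4 RPM (1804, 1146 and 1556 reads), and the 2-HG(+) libraries at 47.5, 53.8 and 55.1 RPM (719, 894 and 844 reads). The 2 groups did not overlap. The mean went from 89.4 ± 11.4 to 52.1 ± 4.06 RPM (SD, n = 3). The log2 fold change was -0.76 (SE 0.12, 95% interval -1.03 to -0.49, limma adjusted p = 0.0013). It ranked 666 from the lowest.

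Aqp3 was at 10.1, 11.2 and 7.68 RPM in 2-HG(-) cells and at 7.27, 5.47 and 6.47 RPM in 2-HG(+) cells. The groups did not overlap, with the lowest control just above the highest treated library. The log2 fold change was -0.52 (SE 0.17, 95% interval -0.90 to -0.14, limma adjusted p = 0.04). The call was lost on leaving out 2-HG(-) replicate 1 (adjusted p = 0.11) or 2 (0.12), or 2-HG(+) replicate 2 (0.14) or 3 (0.076), and under 4 other settings given in the closing section.

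Aqp11 was at 2.50, 1.54 and 1.44 RPM in 2-HG(-) cells and 2.31, 2.58 and 2.09 RPM in 2-HG(+) cells, on 23 to 46 reads a library. The highest control lay within the treated range. The log2 fold change was 0.25 (SE 0.18, 95% interval -0.14 to 0.65, limma adjusted p = 0.31), so a rise of up to 0.65 on the log2 scale remained within the interval.

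**Figure D3:**
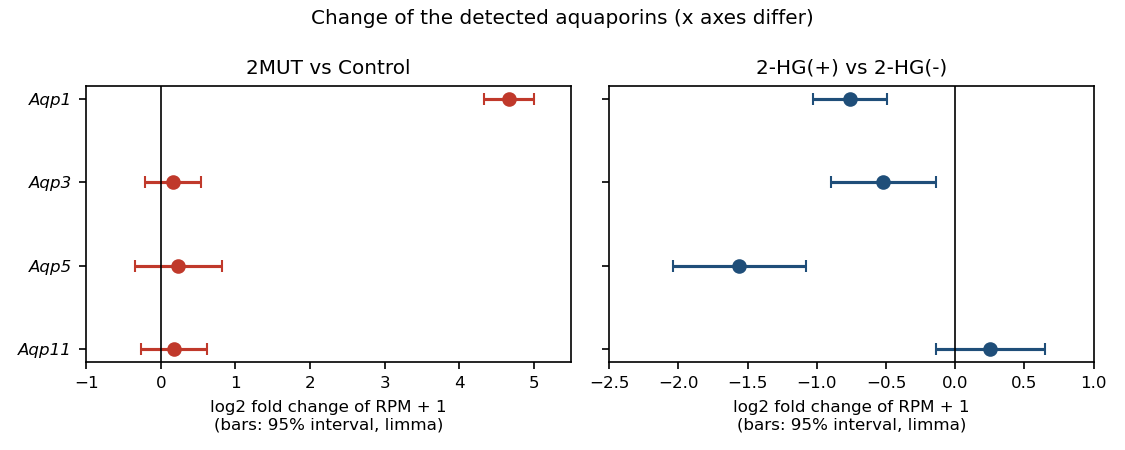
Log2 fold change of RPM + 1 (horizontal axis, with separate scales) for the 4 measured aquaporins in 2MUT against Control (left) and in 2-HG(+) against 2-HG(-) (right), with 95% intervals from limma. Aqp1 stands at 4.67 on the left and -0.76 on the right, and Aqp5 at 0.23 and -1.56.

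Mean Aqp1 was 32.3 RPM in Control and 830 in 2MUT cells in the first table, and 89.4 in 2-HG(-) and 52.1 in 2-HG(+) cells in the second. The tables were normalised apart and list different entries, so only groups within a table can be set against each other. For the other members, Aqp5 was listed at 6.43 RPM in Control and 15.0 RPM in 2-HG(-), and Aqp11 at 8.70 and 1.83 RPM, and no difference is read across the tables.

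The genes whose profile over the 12 libraries was most like that of Aqp1 were Tnfrsf23, Tnfrsf22, Igfbp7, Mettl7b and Ranbp3l. Likeness was the root-mean-square difference of log2(RPM + 1) after subtracting the control mean of the same table, over 9606 genes tested in both tables, whose median difference was 2.38. The large 2MUT difference of Aqp1, by which it was chosen, dominates this distance, so the list mainly holds genes with a large 2MUT rise. The median difference likewise mostly reflects that value of Aqp1 itself. As the named genes were picked for likeness, their values carry no test. Tnfrsf23 and Tnfrsf22, neighbouring decoy receptors for the death ligand TRAIL that are close relatives, were at distances of 0.43 and 0.50, and reads may be split between them. Tnfrsf23 was at 8.20 ± 1.63 RPM in Control and 183 ± 7.37 RPM in 2MUT cells, and at 60.9 ± 3.15 and 56.0 ± 3.24 RPM in 2-HG(-) and 2-HG(+) cells (SD, n = 3). Tnfrsf22 was at 4.58 ± 1.15 and 134 ± 12.7 RPM in the first pair and at 2.62 ± 1.20 and 2.75 ± 1.03 RPM in the second. Both therefore share the high 2MUT level of Aqp1, while in the treatment pair their groups overlapped.

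Igfbp7, a secreted protein that binds insulin-like growth factors, was at a distance of 0.53. It was at 75.7 ± 13.5 and 1098 ± 86.3 RPM in Control and 2MUT cells and at 247 ± 22.3 and 94.8 ± 11.1 RPM in 2-HG(-) and 2-HG(+) cells (SD, n = 3), so it was high and then low in the same order as Aqp1. Mettl7b, a methyltransferase-like protein, was at a distance of 0.90, with 11.9 ± 2.35 and 111 ± 9.49 RPM in the first pair and 1.99 ± 0.297 and 2.28 ± 1.04 RPM in the second. Ranbp3l, at 0.91, had 0.985 ± 0.388 and 15.9 ± 1.97 RPM in the first pair and 2.57 ± 0.338 and 0.192 ± 0.133 RPM in the second, where the 2-HG(+) value rests on 9 reads in all.

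**Figure D4:**
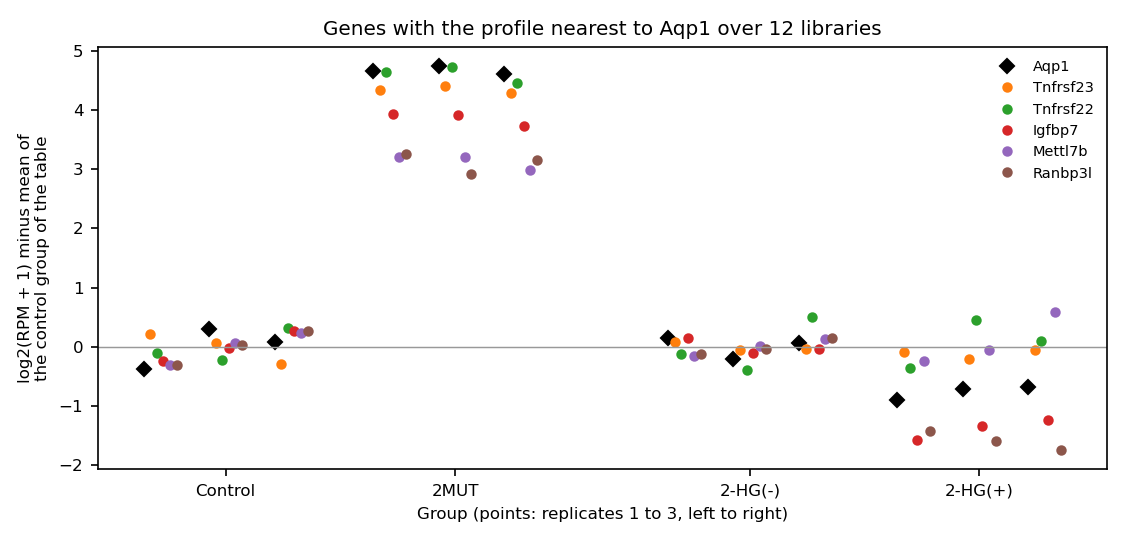
Log2(RPM + 1) of Aqp1 and the 5 genes nearest to it, each less the mean of the control group of its own table (vertical axis), in 12 libraries by group. Replicates run in the order of their numbers, left to right. All 6 genes are far above 0 in 2MUT libraries, while in 2-HG(+) libraries only Aqp1, Igfbp7 and Ranbp3l lie below all 3 of their 2-HG(-) libraries.

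The 2 nearest genes on each side of Aqp1 whose annotated names match both expression tables had few or no reads. Genes without such a match were not examined, so closer neighbours may be missing. Crhr2 lies 203416 bp before it, Ghrhr 27740 bp and Adcyap1r1 103423 bp after it, and all 3, receptors for peptide hormones, had 0 reads in 12 libraries. Inmt, an indole methyltransferase gene 161389 bp before Aqp1, had 0 reads in total in Control and 20 in 2MUT cells, and 13 and 8 in 2-HG(-) and 2-HG(+) cells. With at most 8 reads in a library, Inmt was below the level tested.

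Other genes of water, glycerol and volume handling were taken from lists chosen with earlier results of these data known. Glycerol metabolism, which supplies and uses what the aquaglyceroporins carry, had 6 genes tested in each comparison. In 2MUT cells 1 rose and 1 fell, a share close to the 16.5% and 17.3% of all genes, with a median log2 fold change of -0.11 beside 0.01 for all genes. Lipe, the hormone-sensitive lipase, rose from 18.8 ± 3.13 to 31.2 ± 3.44 RPM (SD, n = 3; log2 fold change 0.71, limma adjusted p = 0.0067), and Gpd2, the mitochondrial glycerol-3-phosphate dehydrogenase, fell (-0.61, adjusted p = 0.011). With 2-HG, limma called 0 of the 6, 0 had an unadjusted p under 0.05, edgeR called 0, and the median was 0.02. The glycerol kinase gene is named Gyk in one table and Gk in the other.

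Genes of the osmolyte response, by which cells take up small solutes under hypertonic stress, were tested for 5 of the 8 listed. Akr1b3, Slc5a3 and Slc6a12, for aldose reductase and the inositol and betaine transporters, had at most 2 reads in any Control or 2MUT library. In 2MUT cells 4 of 5 tested genes rose and 1 fell, against 16.5% and 17.3% of all genes, with a median of 0.69. Hspa4l, a chaperone also called osmotic stress protein, rose from 203 ± 25.2 to 605 ± 52.2 RPM (log2 fold change 1.58, limma adjusted p = 2.8e-06), the amino acid transporter gene Slc38a2 rose by 1.21 (adjusted p = 5.9e-05) and the taurine transporter gene Slc6a6 by 0.69 (adjusted p = 0.00078). The fourth was Nfat5, the tonicity-responsive transcription factor, which rose from 172 ± 20.5 to 269 ± 17.2 RPM (0.65, adjusted p = 0.00095). Sgk1, a kinase of salt and volume regulation, fell (-0.43, adjusted p = 0.0092). With 2-HG, 2 of 5 fell and none of the 5 rose by either limma or edgeR (0 at an unadjusted p under 0.05), against 16.7% lower and 16.1% higher among all genes, with a median of -0.27 beside -0.02. The 2 were Nfat5, from 80.1 ± 4.84 to 48.0 ± 3.89 RPM (-0.73, limma adjusted p = 0.00074), and Slc38a2 (-0.50, adjusted p = 0.004). Whether the response of this list differs between the comparisons was not tested.

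Ion transporters and channels of cell volume were split in both comparisons. In 2MUT cells 6 of 18 tested genes rose and 3 fell (median 0.20), against 16.5% and 17.3% of all genes. Atp1b1 and Atp1b3, beta subunits of the sodium pump, rose by 1.40 (limma adjusted p = 0.0046) and 1.31 (adjusted p = 1.6e-05) on the log2 scale, and Wnk1, a chloride-sensing kinase, by 1.19 (adjusted p = 0.00015). The Atp1b1 value rests on 22 reads in Control and 93 in 2MUT cells. Wnk4, a relative of Wnk1, fell from 7.42 ± 1.29 to 2.36 ± 2.00 RPM (SD, n = 3; -1.57, limma adjusted p = 0.019), with 1 read in its lowest library. The osmosensitive cation channel gene Trpv4 (-0.77, adjusted p = 0.023) and the potassium-chloride cotransporter gene Slc12a7 (-0.37, adjusted p = 0.011) fell as well.

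With 2-HG, 6 of 18 rose and 2 fell (median 0.26), against 16.1% and 16.7% of all genes. The chloride transporter gene Clcn3 rose by 0.90 (limma adjusted p = 0.00035), and Lrrc8d and Lrrc8b, subunits of the volume-regulated anion channel, by 0.78 (adjusted p = 0.00045) and 0.73 (adjusted p = 0.00097). The sodium-potassium-chloride cotransporter gene Slc12a2 fell from 208 ± 15.9 to 127 ± 8.25 RPM (-0.70, adjusted p = 0.00067).

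**Figure D5:**
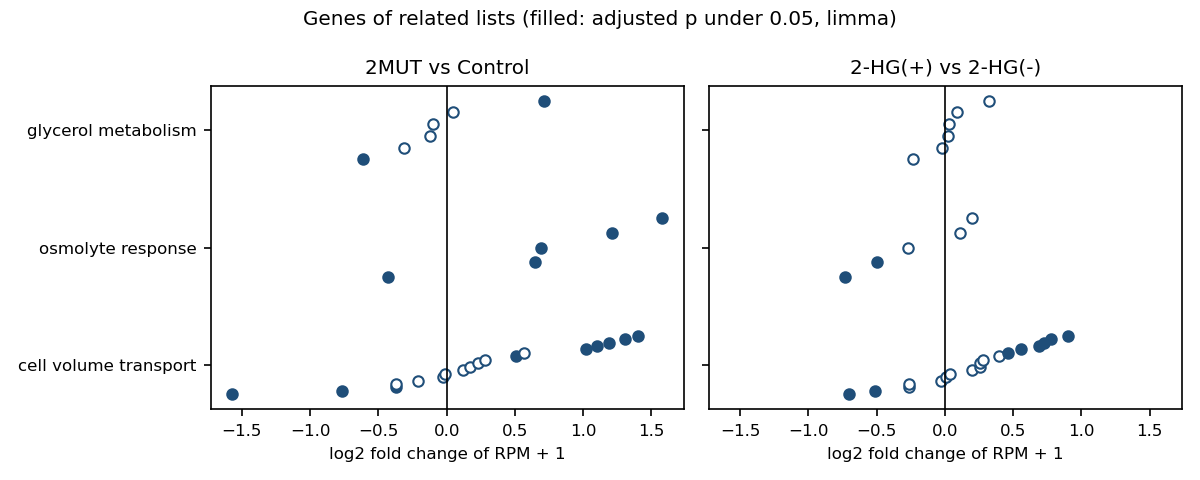
Log2 fold change of RPM + 1 (horizontal axis) for the tested genes of 3 lists in 2MUT against Control (left) and 2-HG(+) against 2-HG(-) (right); filled points had a limma adjusted p under 0.05. Osmolyte response genes lie mostly above 0 on the left, with 4 filled points higher and 1 lower, and 2 filled points lower on the right.

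Aqp1 and its relatives are also markers of other cell types, so marker lists were read beside them. Fibroblast markers summed to 11610 to 12680 RPM in Control and 7909 to 8516 RPM in 2MUT cells, and to 20200 to 21730 and 13740 to 14970 RPM in 2-HG(-) and 2-HG(+) cells. Of 8 fibroblast markers tested, 7 were called lower in 2MUT cells, Pdgfra being at 0.31 (limma adjusted p = 0.062), and 5 were lower and 1 higher with 2-HG, the latter Thy1 (0.71, adjusted p = 0.014). Among all genes 17.3% were lower in 2MUT cells, and 16.7% were lower and 16.1% higher with 2-HG. Their part in the aquaporin values was not tested. Endothelial markers summed to 1.18 to 2.46 RPM in Control and 1.90 to 3.40 RPM in 2MUT cells and to 1.02 to 1.31 and 1.39 to 2.35 RPM in the second pair, with Emcn, Esam, Kdr, Tek and Tie1 at no more than 3 reads in any library. Of the other endothelial markers, Cdh5 had 0 reads in Control and 15 in 2MUT cells over 3 libraries each, Egfl7 had 31 reads in 2-HG(-) and 60 in 2-HG(+) cells, and Pecam1 was at a log2 fold change of -0.05 in 2MUT cells (limma adjusted p = 0.93). The part of Cdh5 and Egfl7 in the Aqp1 values was not tested. Erythroid markers summed to 1.78 to 3.55 and 0.292 to 1.70 RPM, and to 0.708 to 0.901 and 0.719 to 1.92 RPM. The first pair of sums did not overlap. Epor, the erythropoietin receptor gene and the only erythroid marker tested there, had 52 reads in Control and 10 in 2MUT cells over 3 libraries each (-1.23, limma adjusted p = 0.011). It averaged 2.49 RPM in Control and 0.501 RPM in 2MUT cells. Epor thus passed the filter of 1 RPM only through Control, where it was higher, and no result is read from its test. Its part in the Aqp1 values was not tested. Epithelial markers, from the tissues where Aqp3 and Aqp5 are usual, summed to 0 to 1.28 and 0.155 to 0.585 RPM, and to 0.435 to 0.600 and 0.0650 to 0.301 RPM, and 5 and 6 of the 7 had at most 3 reads in every library of the tables in that order. Mesothelial markers summed to 61.5 to 82.3 and 55.6 to 62.2 RPM, and to 282 to 294 and 248 to 326 RPM, and in 2MUT cells Msln fell (-1.32, limma adjusted p = 0.00014) while Wt1 rose (0.50, adjusted p = 0.023). With 2-HG, Msln was at -0.03 (limma adjusted p = 0.87). Wt1 had 26 reads in 2-HG(-) and 2 in 2-HG(+) cells, below the level tested. The part of Msln and Wt1 in the Aqp1 values was not tested. Macrophage markers summed to 7.98 to 13.5 and 7.71 to 8.65 RPM, and to 12.2 to 14.6 and 8.93 to 11.1 RPM. Adipocyte markers summed to 55.4 to 61.7 and 43.6 to 53.4 RPM, and to 5.55 to 8.88 and 2.51 to 3.25 RPM. The epithelial, macrophage and adipocyte sums were lower in 2-HG(+) than in 2-HG(-) cells without overlap, as were Aqp1, Aqp3 and Aqp5, but each rested mostly on 1 gene. Cdh1 had 24 reads in 2-HG(-) and 7 in 2-HG(+) cells, while Epcam, Esrp1, Krt18 and Cldn4 had 0. Cd68 went from 12.4 to 8.46 RPM, while Csf1r was at 1.25 and 1.15 RPM and Adgre1, C1qa, Itgam and Ptprc had at most 1 read in any library of that table. Fabp4 went from 6.79 to 2.79 RPM, while Adipoq, Cidec, Lep and Plin1 had at most 1 read. The part of Cdh1, Cd68 and Fabp4 in the aquaporin values was not tested.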

How the data were processed

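RNA was read with the Ion AmpliSeq Transcriptome mouse kit on an Ion Proton sequencer, aligned with TMAP and counted with the AmpliSeqRNA plug-in; the tables are deposited by the authors as RPM (reads per 1000000 reads). Whole reads were recovered from the RPM steps (100% of values whole within 0.02 reads). Members were taken by exact name. Each comparison was fitted within its own table with limma 3.58.1 in R 4.3.3 (mean-variance trend) on log2(RPM + 1), keeping genes that averaged 1 RPM or more, with Benjamini-Hochberg adjustment over all genes tested and a threshold of 0.05. The study tested each gene on its own in other software; the unmoderated test among the alternatives uses the values and filter given here and does not repeat that analysis. Fold changes on this scale understate low genes. Alternatives were a value of 0.1 added, no filter, a filter of 10 RPM, median-of-ratios scaling, an unmoderated test, edgeR 4.0.16 on the recovered reads, a block for the replicate number, and the omission of single libraries. edgeR called 1818 genes higher and 1947 lower in 2MUT, and 1794 and 1752 with 2-HG.

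The members and lists were chosen with earlier results of these data known. Named genes were the members, Mip, Aqp2, Aqp6 and Aqp12, up to 3 called genes in each direction of each list and comparison with the largest fold change, the 2 listed genes on each side of Aqp1, the 5 profiles nearest to Aqp1, and Idh2. Of the names, 27 in each file had been turned into dates and were not matched to a gene. One result that this rule would name is not reported here.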

Additional observations from a re-analysis of the deposited data

Results flagged for a closer look

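Aqp1 lay in opposite directions in the comparisons, with a log2 fold change of 4.67 in 2MUT against Control and -0.76 in 2-HG(+) against 2-HG(-). Every 2MUT library was above every Control library, and every 2-HG(+) library was below every 2-HG(-) library. The difference between these effects was not tested, since the gene was chosen by the first of them.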

How the results depend on the processing

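Aqp1 and Aqp5 kept their direction and their call in the 2-HG comparison under every alternative that gave a value. Aqp1 ranged from -0.87 to -0.69 on leaving out a library (adjusted p 0.00089 to 0.0098) and from -0.77 to -0.73 otherwise (0.00074 to 0.027), and Aqp5 from -1.74 to -1.30 (0.00019 to 0.0046) and from -1.75 to -1.54 (0.00039 to 0.03). Aqp11 stayed between 0.16 and 0.42 without a call. The Aqp3 fold change was -0.52 with no filter (adjusted p = 0.1), -0.49 with median-of-ratios scaling (0.055), -0.52 in the unmoderated test (0.12) and -0.66 to -0.41 on leaving out a library (0.027 to 0.14); the call held with 0.1 added and with edgeR (0.046), and the cause was not tested. A filter of 10 RPM left 1 aquaporin tested, which was lower, and leaving out a library gave 2 to 3 lower. In 2MUT cells Aqp1 ranged from 4.48 to 4.82 on leaving out a library and from 4.67 to 4.71 otherwise. The unmoderated test called 1021 genes higher and 1223 lower in 2MUT and 1098 and 1139 with 2-HG, and 1 glycerol gene in 2MUT, as it also was without 2MUT replicate 2 (range 1 to 2), against 2 as reported and 3 with a filter of 10 RPM and with edgeR (1 higher and 2 lower). Same-numbered replicates correlated at 0.03 to 0.07 in the first table and -0.46 to 0.06 in the second. This gave no sign that the numbers pair the samples, but 3 libraries in a group cannot exclude a pairing. With the replicate number as a block, Aqp3 was at -0.52 with adjusted p = 0.078. With at most 2 reads in a library, a difference in Aqp4, Aqp7, Aqp8 or Aqp9 was not detectable.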

Other observations

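Channels for ammonia and urea, solutes that some aquaporins also pass, mostly had few or no reads. Of the Rh ammonia channel genes, Rhag, Rhbg and Rhcg had 0 reads in the Control and 2MUT libraries, and in the other table Rhag had 11 reads in 2-HG(-) and 2 in 2-HG(+) libraries, at most 7 in 1 library, and Rhcg had 0. Slc14a2, a kidney urea transporter gene, averaged 0.891 ± 0.712 RPM in Control and 1.69 ± 1.02 RPM in 2MUT cells (SD, n = 3; log2 fold change 0.50, limma adjusted p = 0.33). It passed the filter of 1 RPM only through 2MUT cells, where it was higher, so no result is read from its test. In the treatment pair Slc14a2 had 21 reads in 2-HG(-) and 3 in 2-HG(+) libraries, below the level tested. Slc14a1, the urea transporter of red cells, averaged 37.4 ± 12.9 RPM in Control and 45.5 ± 3.12 RPM in 2MUT cells (SD, n = 3; log2 fold change 0.34, limma adjusted p = 0.27), and 2.41 ± 1.06 and 1.33 ± 0.495 RPM in 2-HG(-) and 2-HG(+) cells (-0.52, adjusted p = 0.15). None of the 3 tested differences passed by limma or edgeR, and 0 had an unadjusted p under 0.05.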
